A study of Homo sapiens with 15 samples.

Results

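The genes described here encode the proteins of the mitochondrial ribosome that carry an MRPL or MRPS symbol (MRP genes). Members were the protein-coding genes whose symbol consists of MRPL or MRPS, a number and at most 1 further letter, and whose average over the libraries reached 1 count. Of 78 symbols that matched, 77 passed and MRPL53 did not. These 77 genes, spread over 21 chromosomes, stood among 23184 genes that passed the same limit. By the subunit in which the protein sits, 50 belong to the large subunit and 26 to the small subunit, since MRPS18A and MRPS30 are large-subunit proteins despite their symbols. The remaining one, MRPS36, is also known as KGD4 and belongs to the 2-oxoglutarate dehydrogenase complex.

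The mitochondrial ribosome translates the few proteins encoded by mitochondrial DNA, all of them core subunits of the respiratory chain and of ATP synthase. Its ribosomal RNAs come from mitochondrial DNA, whereas every one of its proteins is encoded in the nucleus, made on cytosolic ribosomes and imported. Some of its proteins have a bacterial counterpart and others were added in the mitochondrial lineage, and several are mutated in inherited defects of oxidative phosphorylation.

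RNA sequencing was performed on 12Z cells, an immortalized epithelial line from human endometriosis, in 5 groups of 3 libraries. The libraries of a group came from independent experiments according to the methods. In the order of perturbations carried, the groups were siRSAD2 with PIK3CA H1047R and insulin, siRSAD2 with PIK3CA H1047R and vehicle, siRSAD2 with empty vector and insulin, siRSAD2 with empty vector and vehicle, and the control, in which a non-targeting siRNA was followed by empty vector and vehicle. siRSAD2 is a pool of siRNAs against RSAD2, which encodes the antiviral protein viperin. H1047R is an activating mutation of the catalytic subunit of phosphatidylinositol 3-kinase, given by transient transfection of a pBabe plasmid 24 h after the siRNA. All cells then went without serum for 4 h and received 100 nM insulin or vehicle for 24 h. The insulin and H1047R groups all carry siRSAD2, so neither perturbation was examined here with normal RSAD2 levels. Only 1 siRNA pool against RSAD2 was used, and lowering of RSAD2 and any other action of that pool cannot be told apart. The titles number the non-targeting libraries 4 to 6 and those of each siRSAD2 group 1 to 3. If these numbers mark separate sets of experiments, which nothing states, set and siRNA cannot be told apart in the siRSAD2 comparison. The cells came as bulk RNA, in which fewer cells of a kind and less RNA per cell cannot be told apart.

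Reads counted to genes numbered 16126820 to 39671047 per library, of which the MRP genes took 0.352 to 0.393%. Levels are given as CPM, which is the count scaled to library size with TMM factors, and a difference is a log2 fold change ± its standard error (SE). RSAD2 averaged 0.326 ± 0.324 CPM in siRSAD2 empty-vector vehicle cells and 3.29 ± 0.359 CPM in non-targeting cells (SD, n = 3 each). In siRSAD2 empty-vector insulin cells it averaged 0.331 ± 0.176 CPM. With siRSAD2 and H1047R it averaged 0.899 ± 0.446 CPM in vehicle cells and 0.837 ± 0.0574 CPM in insulin cells. PIK3CA averaged 211 ± 12.2 CPM in H1047R vehicle cells and 89.0 ± 4.05 CPM in empty-vector vehicle cells with siRSAD2 (SD, n = 3 each). With siRSAD2 and insulin PIK3CA averaged 163 ± 2.08 CPM in H1047R cells and 79.2 ± 2.53 CPM in empty-vector cells. Of the epithelial markers, the keratins were expressed, but EPCAM (0 to 0.61 CPM) and CDH1 (0.269 to 1.00 CPM) were near 0 in every library. Across the groups, 6 epithelial markers summed to 1754 to 2386 CPM and 6 stromal markers to 4214 to 5185 CPM. Library 3 of the siRSAD2 empty-vector vehicle group had 235 genes whose level was more than 3 times that in each of the other 14 libraries, of which 199 were pseudogenes and none was an MRP gene. Library 2 of the siRSAD2 empty-vector insulin group stood apart from both others of its group, with a chi-square divided by its degrees of freedom of 12.5 and 13.6, whereas the other pairs of replicates reached 6.52 at most. Counts of members called are also given without both of these libraries where the count changed.

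The stretches just upstream of 7 members are shown as examples. They were picked by hand from the genes in the responses described further on, and short motifs were searched in them. Each is the last 100 bases before the gene's first listed RefSeq start (GRCh38.p14), and capitals mark a motif match. MRPL18 (chr6:159789712-159789811, plus strand), MRPL50 (chr9:101398619-101398718, minus strand) and MRPS18A (chr6:43687792-43687891, minus strand) fell with siRSAD2.

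MRPL18: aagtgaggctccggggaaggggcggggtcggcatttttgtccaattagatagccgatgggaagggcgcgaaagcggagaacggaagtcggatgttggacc
MRPL50: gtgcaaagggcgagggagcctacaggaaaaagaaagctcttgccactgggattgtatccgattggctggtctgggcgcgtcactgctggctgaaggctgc
MRPS18A: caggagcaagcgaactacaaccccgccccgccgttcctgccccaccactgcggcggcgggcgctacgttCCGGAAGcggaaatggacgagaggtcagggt

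MRPS9 (chr2:105037969-105038068, plus strand), MRPL1 (chr4:77862730-77862829, plus strand), MRPL22 (chr5:154940973-154941072, plus strand) and MRPL20 (chr1:1407294-1407393, minus strand) rose with insulin.

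MRPS9: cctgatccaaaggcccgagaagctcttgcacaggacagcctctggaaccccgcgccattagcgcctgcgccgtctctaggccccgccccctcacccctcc
MRPL1: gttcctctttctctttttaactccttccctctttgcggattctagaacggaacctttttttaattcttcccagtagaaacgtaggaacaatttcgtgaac
MRPL22: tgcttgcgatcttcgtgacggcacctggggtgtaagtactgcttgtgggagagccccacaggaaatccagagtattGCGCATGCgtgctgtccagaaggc
MRPL20: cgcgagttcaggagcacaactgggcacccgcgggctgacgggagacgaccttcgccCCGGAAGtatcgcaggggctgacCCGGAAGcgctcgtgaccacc

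MRPS18A held an ETS motif (CCGGAAG) whose first base lay 31 bases before the start, and MRPL20 held the same motif at 44 and 21 bases before it. MRPL22 held the NRF1 motif (GCATGCGC, here on the other strand) at 24 bases before the start. No searched motif lay in the stretches of MRPL18, MRPL50, MRPS9 and MRPL1, so genes with and without these letters stood among both those that fell with siRSAD2 and those that rose with insulin.

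A RefSeq promoter of 300 bases, 250 before the start and 50 after it, was found for 68 of the 77 MRP genes. ETS factors such as GABPA, NRF1 and YY1 are known activators of nuclear genes for mitochondrial proteins. On either strand, 28 of the 68 promoters (41.2%) held the ETS motif, against 14.2% of 15842 promoters of coding genes. The YY1 motif (AAGATGGCG) was in 13 MRP promoters (19.1%), against 2.74% of coding promoters, and the NRF1 motif in 6 (8.82%), against 4.26%. At least 1 of the 3 motifs was in 38 MRP promoters (55.9%), against 19.5% of coding promoters. The E-box (CACGTG), which MYC can bind, was in 6 MRP promoters (8.82%), against 8.88% of coding promoters, and the heat shock element (GAANNTTC) was in 6 (8.82%), against 5.56%. In these 300-base promoters MRPL18 held the heat shock element and MRPL50 the YY1 motif, while MRPS9 and MRPL1 held none of the searched motifs. Matches of different motifs may overlap, and a match is a description of the sequence only. Of the 11 promoters of genes that fell with siRSAD2, 4 held the ETS motif and 3 the YY1 motif, and of the 10 promoters found among genes that rose with insulin in the average of both vectors, 3 held the ETS motif and 3 the YY1 motif.

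To compare levels between genes, CPM was divided by the length in kb of all exons of a gene. The median over the 77 MRP genes was 14.9 CPM per kb, and large-subunit genes had a median of 16.7 CPM per kb, against 9.35 CPM per kb for small-subunit genes. MRPL51, a mitochondrion-specific protein of the large subunit, stood at 129 CPM per kb and ranged between 118 and 143 over the 15 libraries, above every other member. MRPL41 followed at 58.9 CPM per kb (range 43.0 to 68.7) and MRPL37 at 54.1 CPM per kb (range 48.2 to 59.6), and as these ranges overlap, the order of these genes is not fixed. Per kb of the longest transcript MRPL41 came after MRPL51, MRPL37, MRPL3 and MRPL33 and left the top 3. MRPL41 and MRPL37 are mitochondrion-specific proteins of the large subunit.

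The lowest levels per length were those of MRPL46 at 0.444 CPM per kb (range 0.334 to 0.590), MRPL38 at 0.437 (range 0.197 to 0.588) and MRPS24 at 0.348 (range 0.241 to 0.507). The first 2 encode mitochondrion-specific large-subunit proteins and MRPS24 a small-subunit protein with a bacterial counterpart, and their ranges overlap. A total of 17 MRP genes share exon bases with another gene on the same strand in GENCODE release 44. For 15 of them the other gene is also in the count files, and there STAR counts a read in the shared bases for neither gene, whereas for MRPS5 and MRPS25 it is not in the files. The 8 lowest members, which also include MRPL12, MRPS17, MRPL2, MRPS25 and MRPS28, were all among these 17. The 17 had a median of 4.43 CPM per kb, against 17.9 CPM per kb for the other 60, and the part of the overlap in these low values was not tested. For MRPS24 the overlapping gene is the readthrough gene URGCP-MRPS24, with which it shares 606 of 2607 exon bases. MRPL38 shares 1373 of 3342 exon bases, while its longest transcript has 1358 bases.

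**Figure D1:**
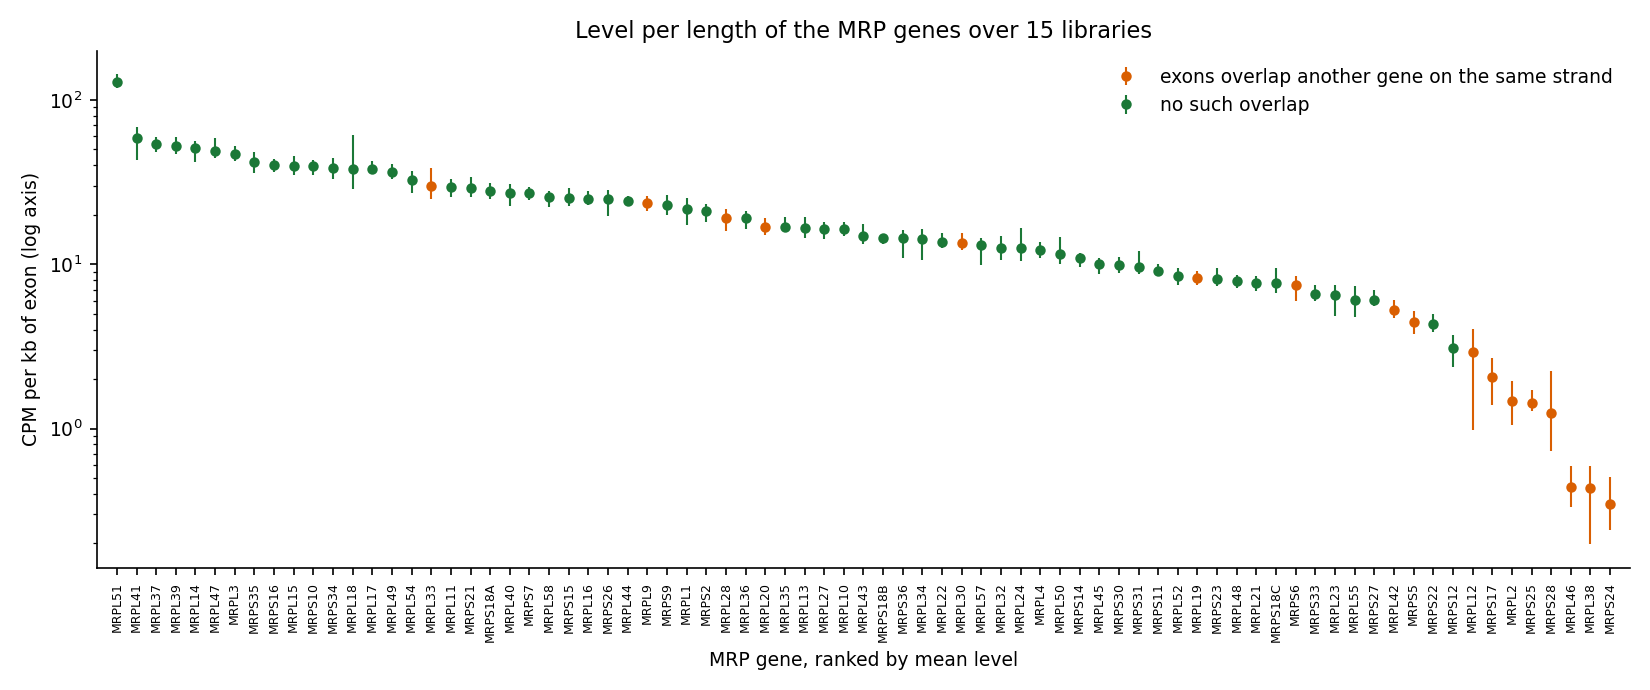
Mean level of each of the 77 MRP genes over 15 libraries, as CPM per kb of exon on a log axis, with bars from the lowest to the highest library. MRPL51 stands at the left at 129 CPM per kb, and the 8 genes at the right end are all among those whose exons overlap another gene on the same strand.

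Levels of most MRP genes were similar in the 5 groups. The highest group mean was at most 2.06 times the lowest, with a median of 1.15 times over the 77 genes, and it was below 1.2 times for 53 of them. Only MRPS28, MRPL18 and MRPS24 reached 1.5 times, and of these MRPS24 (12 to 49 counts per library) and MRPS28 (33 to 112 counts) had few counts. Summed over the members, the level was 3788 ± 7.58 CPM in siRSAD2 H1047R insulin cells, 3617 ± 76.9 CPM in siRSAD2 H1047R vehicle cells, 3821 ± 43.3 CPM in siRSAD2 empty-vector insulin cells, 3666 ± 88.9 CPM in siRSAD2 empty-vector vehicle cells and 3935 ± 77.5 CPM in non-targeting cells (SD, n = 3 each). The sum was thus highest in the non-targeting group, lowest in the vehicle groups with siRSAD2, and between them in both insulin groups. In the edgeR quasi-likelihood test of any difference among the 5 groups, 32 of 77 MRP genes passed an adjusted p of 0.05 (41.6%), against 28.4% of all genes tested. With the stricter filter of edgeR on low counts 34 of 77 passed, against 40.7% of all genes. Without both libraries that stand apart 31 of 77 passed, against 30.3% of all genes. In the 8 comparisons with a direction, 26 members were called at least once, 7 of them more than once, and 51 in none. The same count was not made over all genes, so it cannot be set against a background. Shares of all genes are given below for each comparison.

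**Figure D2:**
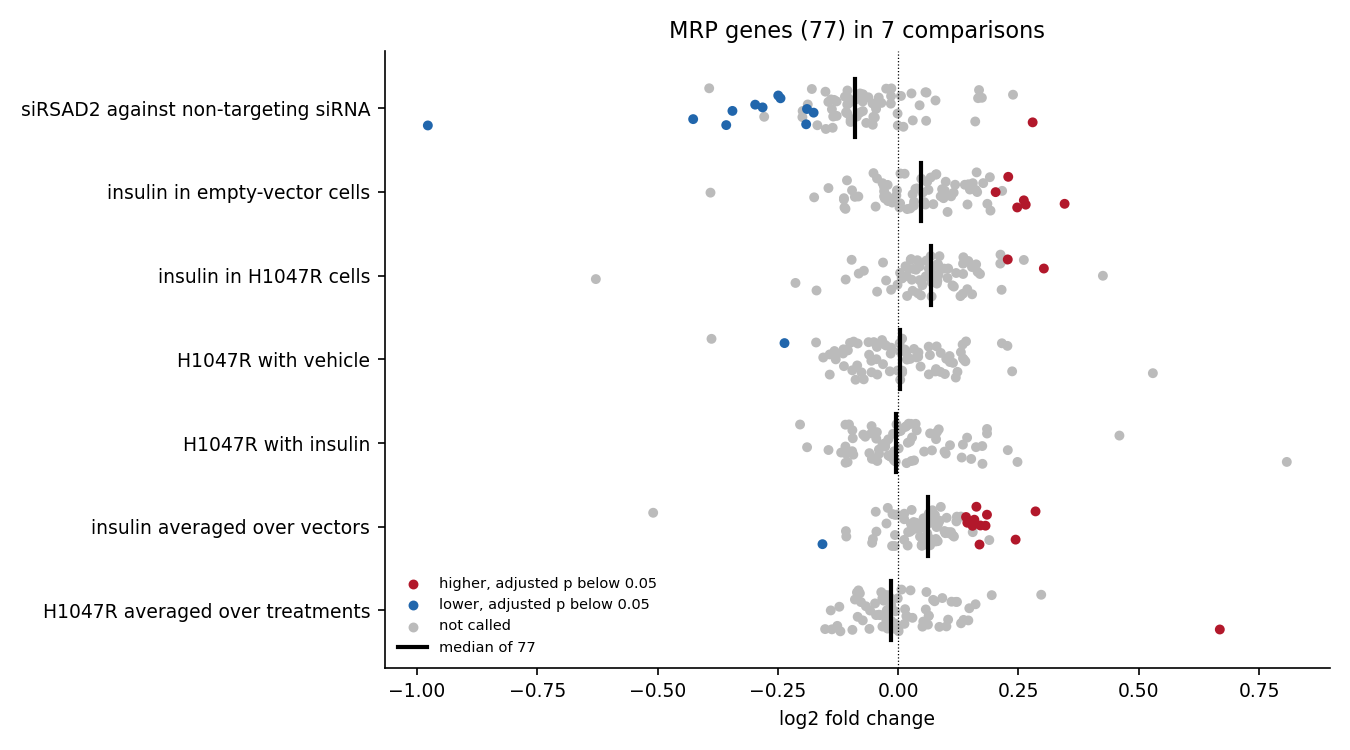
Log2 fold changes of the 77 MRP genes in 7 comparisons, the first-named condition over its control, with genes past an adjusted p of 0.05 in red (higher) or blue (lower), black bars at the median and heights within a row drawn at random. The median lies at -0.09 for siRSAD2 and at 0.05 and 0.07 for insulin with each vector, and MRPL18 stands apart at -0.98.

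With siRSAD2, against non-targeting siRNA in empty-vector vehicle cells, MRP genes were mostly somewhat lower, and MRPL18 fell to about 0.508-fold. In the edgeR test, 11 of the 77 fell and 1 rose (15.6% called), against 19.5% called, 9.82% higher and 9.72% lower, among all genes. The share of members called was thus no higher than the background, while 62 of 77 log2 fold changes were negative. Their median was -0.09, against 0.02 over all genes. In 25 members the 3 siRSAD2 libraries all lay below the 3 non-targeting libraries and in 2 they all lay above, against 17.1% and 16.1% of all genes. The falls comprised 9 of 50 large-subunit genes and 2 of 26 small-subunit genes, and the difference between the subunits was not tested.

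MRPL18 (ENSG00000112110.10, hg38 chr6:159789812-159798436, plus strand) encodes a large-subunit protein of the central protuberance and had the smallest p of all members. Its level was 39.3, 43.8 and 43.0 CPM in siRSAD2 empty-vector vehicle cells, against 79.8, 83.8 and 84.6 CPM in non-targeting cells. The groups were far apart, with a log2 fold change of -0.98 ± 0.06 (SE, n = 3 each, edgeR adjusted p = 8.67e-13). All 12 libraries with siRSAD2, whatever the vector or treatment, lay between 39.3 and 49.9 CPM. Within these 12, MRPL18 was not called for insulin (0.10 ± 0.07 with empty vector and 0.03 ± 0.07 with H1047R) nor for H1047R (0.10 ± 0.07 with vehicle and 0.03 ± 0.07 with insulin). The log2 fold change was -0.92 or lower in all 14 alternatives and stayed past the threshold in each. TCP1, a subunit of the cytosolic chaperonin, is transcribed away from MRPL18 from a start 109 bases apart, and was looked up after the MRPL18 values were seen. It changed by -0.12 ± 0.04 (edgeR adjusted p = 0.041), a smaller difference than that of MRPL18.

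MRPL50 (ENSG00000136897.8, chr9:101387633-101398618, minus strand), a mitochondrion-specific large-subunit protein, had 35.1, 34.0 and 38.0 CPM in siRSAD2 empty-vector vehicle cells, against 48.6, 48.7 and 46.6 CPM in non-targeting cells. No library of one group reached the other, and the log2 fold change was -0.43 ± 0.07 (edgeR adjusted p = 1.14e-05). MRPS27 (ENSG00000113048.16, chr5:72214953-72321717, minus strand) encodes a small-subunit protein of the pentatricopeptide repeat family. It had 110, 115 and 115 CPM with siRSAD2, against 136, 133 and 135 CPM with the non-targeting siRNA, and fell by 0.25 ± 0.05 on the log2 scale (edgeR adjusted p = 0.000248). The spread within each group was again smaller than the gap between them.

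The other members that fell were MRPL43 (-0.30), MRPL24 (-0.36), MRPL33 (-0.34), MRPS16 (-0.19), MRPL1 (-0.24), MRPS30 (-0.19), MRPS18A (-0.18) and MRPL34 (-0.28), with edgeR adjusted p between 0.000347 and 0.0397. MRPL24, MRPL33, MRPL34, MRPL1 and MRPS16 have bacterial counterparts, whereas MRPL43 and MRPS30 do not. The only member that rose was MRPS6, a small-subunit protein with a bacterial counterpart, with 30.7, 35.4 and 34.96 CPM in siRSAD2 cells, against 28.5, 29.1 and 25.5 CPM in non-targeting cells (0.28 ± 0.08, edgeR adjusted p = 0.0167). The 3 siRSAD2 values lay above the 3 non-targeting values by a margin smaller than the spread within either group.

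Without non-targeting library 6, 6 falls and no rise were left, against 14.7% of all genes called. MRPS6, MRPL1, MRPS16, MRPS30, MRPS18A and MRPL34 were then no longer called. MRPS6 also lost its call without siRSAD2 empty-vector vehicle library 2 (edgeR adjusted p = 0.0541) or library 3 (0.0699). Without both libraries that stand apart 15 members were called, 14 lower and 1 higher, against 19.1% of all genes. These held all 12 called in the main fit, with MRPL14, MRPL54 and MRPS34 added.

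**Figure D3:**
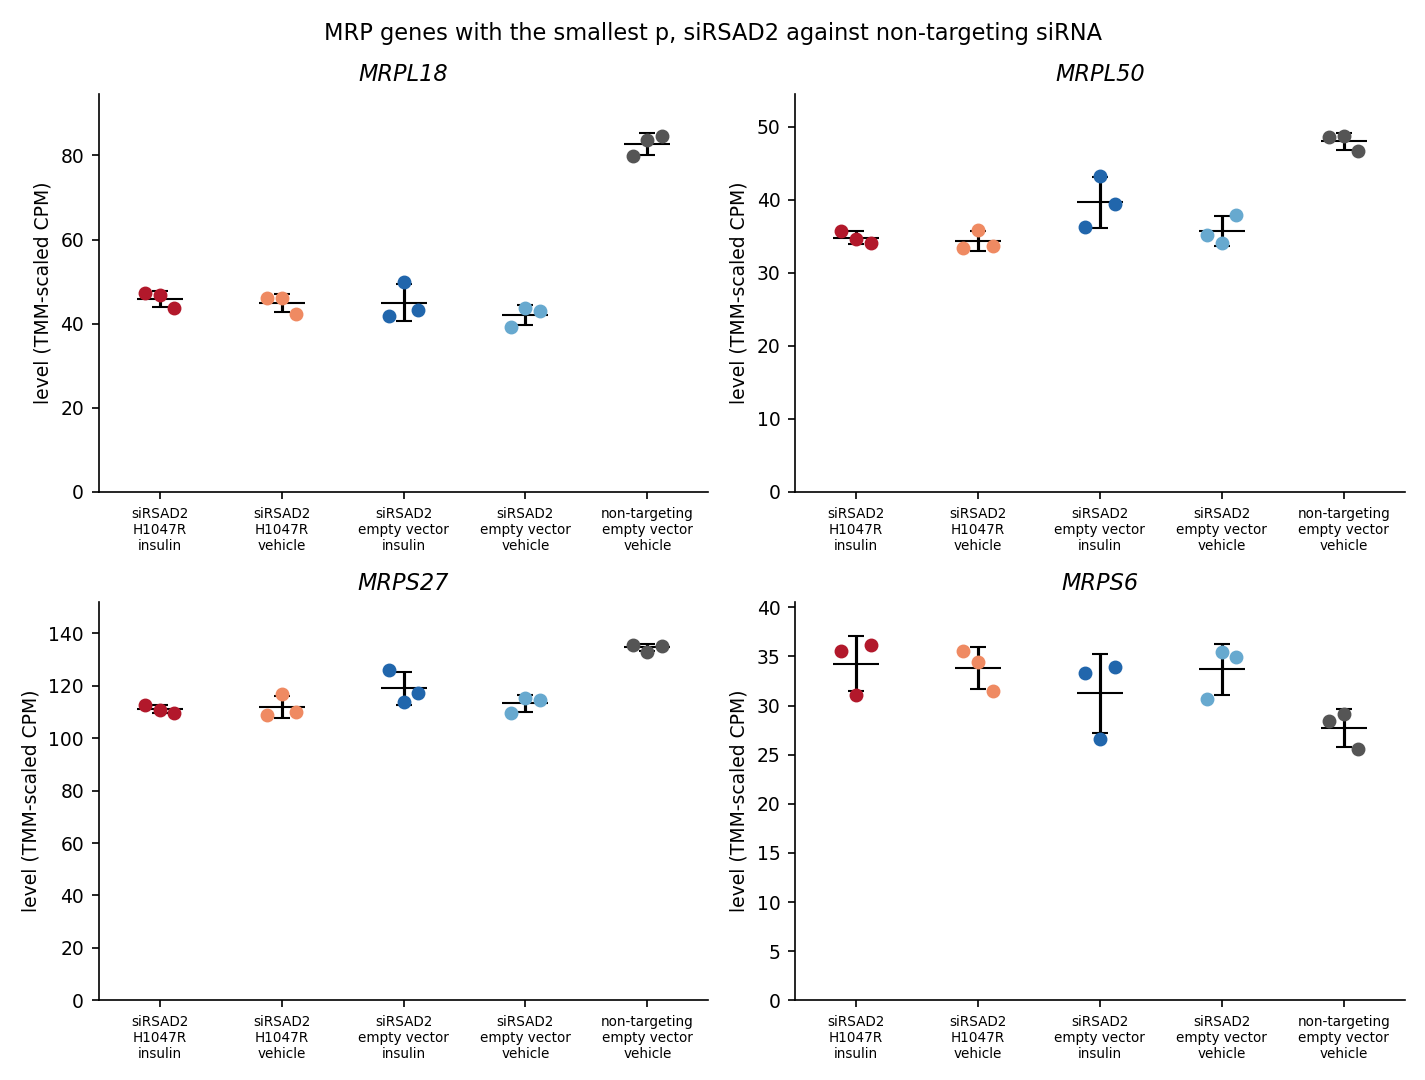
Level in TMM-scaled CPM of the 3 MRP genes with the smallest p among those that fell with siRSAD2 (MRPL18, MRPL50, MRPS27) and of the only one that rose (MRPS6), by library in the 5 groups, with the mean and SD as bars (n = 3). For MRPL18 all 12 siRSAD2 libraries lie at 39.3 to 49.9 CPM and the non-targeting libraries at 79.8 to 84.6 CPM.

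Other genes of mitochondrial translation were called with siRSAD2 about as often as all genes (19.5%), at 1 of 5 subunits with other names, 23.1% of assembly factors and 21.1% of translation factors. Of the 5 mitoribosome subunits with other names (DAP3, AURKAIP1, CHCHD1, PTCD3 and GADD45GIP1), CHCHD1 fell by 0.44 ± 0.09 on the log2 scale (edgeR adjusted p = 0.000876) and the others were not called. Of 26 assembly factors 6 fell and none rose. The smallest p were those of RPUSD3, a mitochondrial pseudouridine synthase (-0.74 ± 0.10, edgeR adjusted p = 1.40e-06), and NGRN, which binds the large rRNA (-0.51 ± 0.07, edgeR adjusted p = 1.45e-06). Of 19 translation factors 4 fell and none rose, among them GFM2, which splits the ribosome after termination (-0.25 ± 0.05), and OXA1L, which inserts new proteins into the inner membrane (-0.22 ± 0.05). Of 77 nuclear genes of the respiratory chain, 24 fell and none rose, whereas 3 of the 13 proteins encoded by mitochondrial DNA rose and none fell. Cytosolic ribosomal protein genes fell far more often, 58 of 76 with none rising and a median of -0.23, against -0.09 for the MRP genes.

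Among 15 regulators of mitochondrial gene expression, 3 were called with siRSAD2 (20%), a share near the 19.5% of all genes. GABPA averaged 52.3 ± 0.995 CPM in siRSAD2 empty-vector vehicle cells and 69.7 ± 3.95 CPM in non-targeting cells (-0.41 ± 0.08, edgeR adjusted p = 0.000155). YY1 averaged 170 ± 2.07 CPM with siRSAD2 and 209 ± 4.83 CPM with the non-targeting siRNA (-0.30 ± 0.04, edgeR adjusted p = 6.03e-06). The coactivator PPRC1 rose (0.19 ± 0.06, edgeR adjusted p = 0.0345), while NRF1, TFAM and MYC were not called. The part of these regulators in the MRP levels was not tested. Of 6 epithelial markers 3 fell and none rose, which summed to 1900 to 2038 CPM with siRSAD2 and 2352 to 2386 CPM with the non-targeting siRNA. Of 6 stromal markers 5 fell and COL1A1 rose, with sums of 4728 to 4787 CPM with siRSAD2 and 4759 to 5185 CPM with the non-targeting siRNA. The part of these markers in the MRP levels was not tested.

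**Figure D4:**
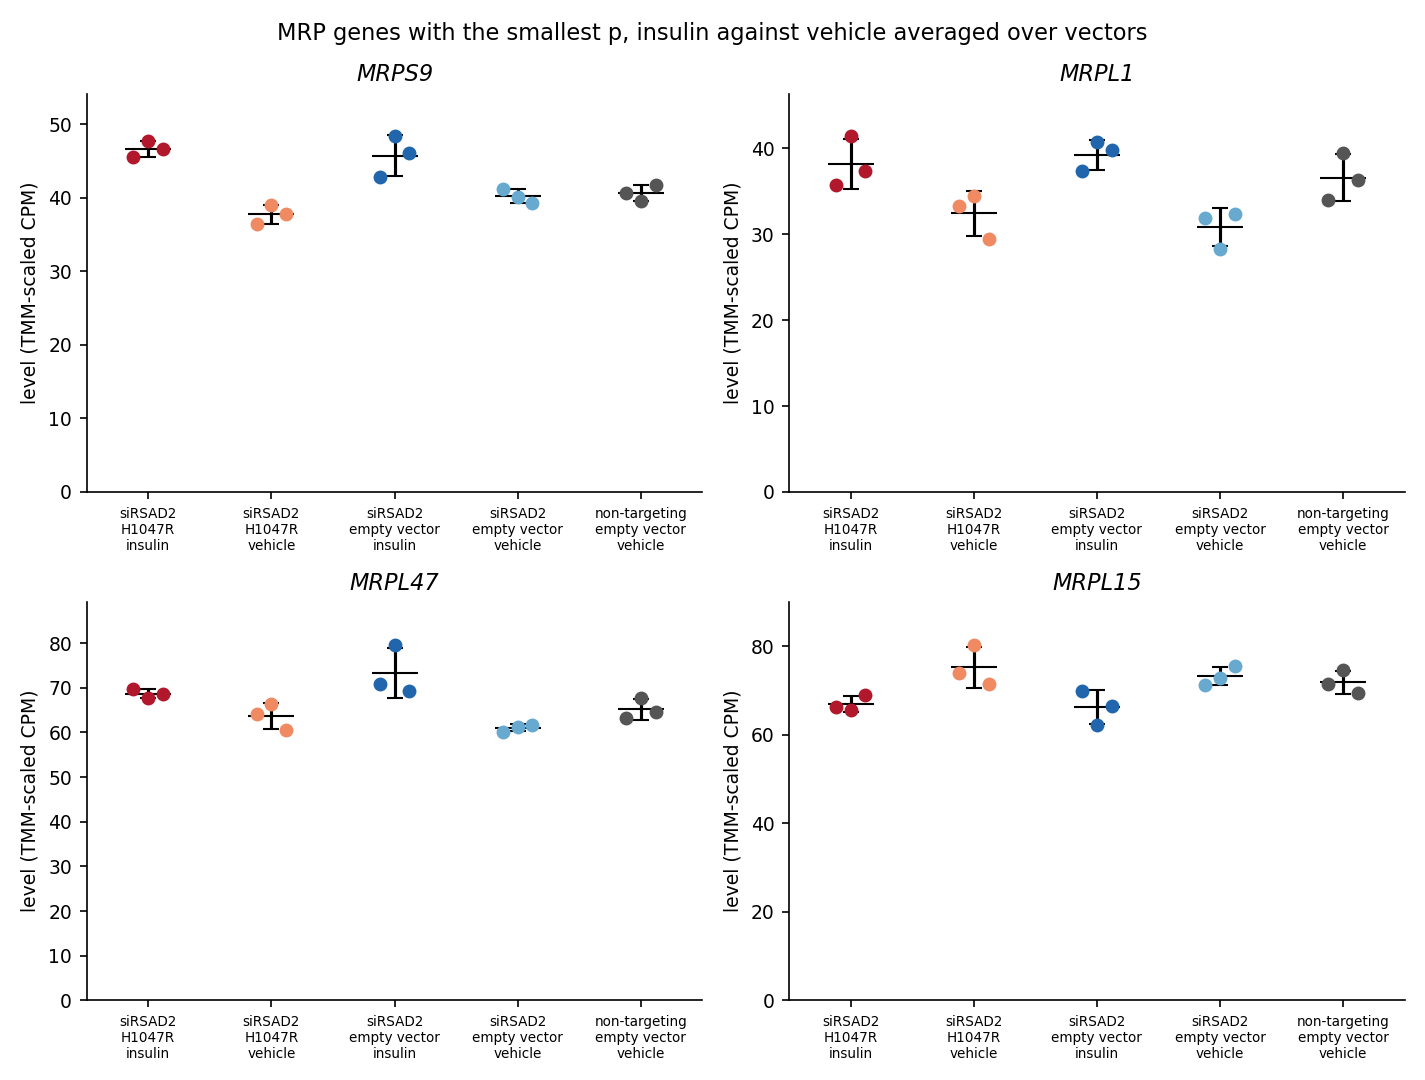
Level in TMM-scaled CPM of the 3 MRP genes with the smallest p among those that rose with insulin in the average of both vectors (MRPS9, MRPL1, MRPL47) and of the only one that fell (MRPL15), by library in the 5 groups, with the mean and SD as bars (n = 3). The 6 insulin libraries of MRPS9 lie at 42.8 to 48.4 CPM and the 6 vehicle libraries with siRSAD2 at 36.5 to 41.2 CPM.

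Insulin against vehicle was compared within siRSAD2 cells, with each vector and in the average of both. MRP genes were mostly slightly higher with insulin, and the called changes were 1.10- to 1.27-fold rises except for MRPL15. In empty-vector cells 6 of 77 rose and none fell (7.79% called), against 6.28% called, 2.1% higher and 4.19% lower, among all genes. In H1047R cells 2 rose and none fell (2.6% called), against 2.47% called, 0.483% higher and 1.99% lower. In the average of both, 11 rose and 1 fell (15.6% called), against 8.37% called, 3.15% higher and 5.22% lower.

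The median log2 fold change of the members was 0.05 in empty-vector cells, with 50 of 77 positive, and 0.07 in H1047R cells, with 65 positive. Over all genes both medians were 0.00. All 3 insulin libraries lay above all 3 vehicle libraries in 16 members with empty vector and in 20 members with H1047R, against 9.28% and 8.83% of all genes. The reverse held for 3 and 2 members, against 9.6% and 10.5%. The 2 insulin comparisons share no library. A total of 45 members (58.4%) were positive in both and 7 (9.09%) negative in both, against 29.4% and 29.5% of all genes, and over the 77 genes Pearson's r was 0.36 and Spearman's rho 0.11, a weak relation among genes that are not independent.

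**Figure D5:**
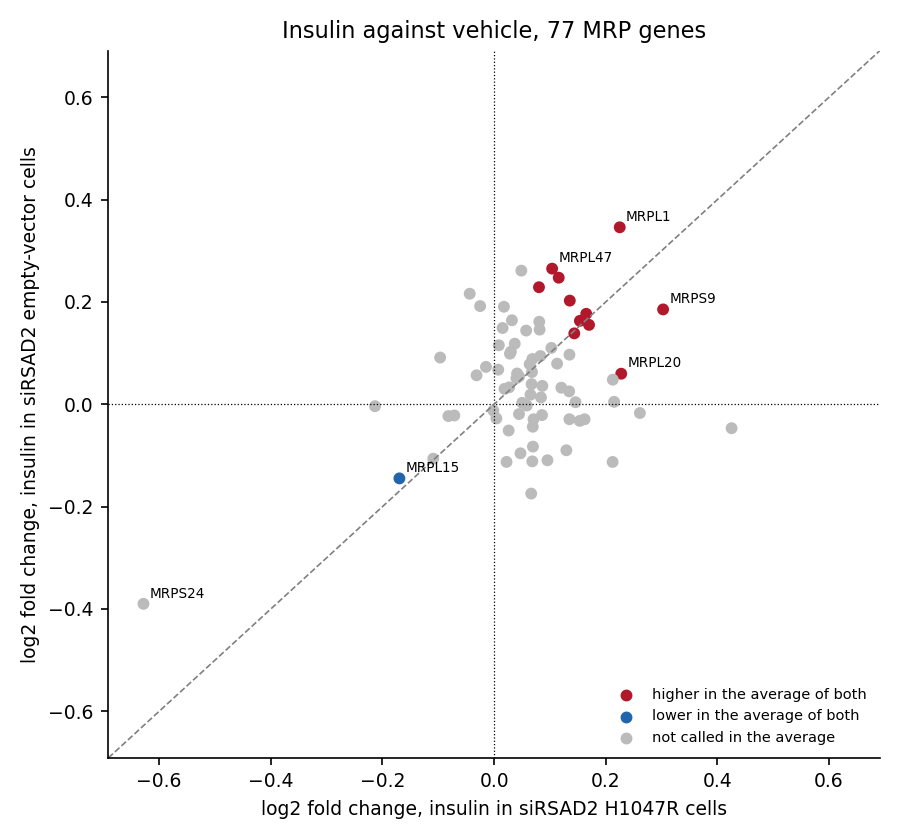
Log2 fold change with insulin of each of the 77 MRP genes in siRSAD2 H1047R cells (horizontal) and in siRSAD2 empty-vector cells (vertical), with the dashed line at equal change and colours for genes past an adjusted p of 0.05 in the average of both. The point at the lower left is MRPS24, which has 12 to 49 counts per library and was not called, and 45 of the 77 points lie at the upper right of the origin.

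MRPS9 (ENSG00000135972.9, chr2:105038069-105099960, plus strand) encodes a small-subunit protein with a bacterial counterpart and had the smallest p in the average. With H1047R it had 45.6, 47.8 and 46.6 CPM in insulin cells, against 36.5, 39.0 and 37.8 CPM in vehicle cells, a log2 fold change of 0.30 ± 0.06 (edgeR adjusted p = 0.00219). With empty vector it had 42.8, 48.4 and 46.1 CPM in insulin cells, against 41.2, 40.1 and 39.3 CPM in vehicle cells, and the change of 0.19 ± 0.06 was not called (edgeR adjusted p = 0.0619). Insulin and vehicle libraries did not overlap with either vector, and the average was 0.24 ± 0.04 (edgeR adjusted p = 0.000167). This call held in all 21 alternatives, with values between 0.21 and 0.28.

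MRPL1 (ENSG00000169288.18, chr4:77862830-77952785, plus strand) encodes the protein of the L1 stalk, which guides the leaving tRNA. With empty vector it had 37.3, 40.7 and 39.8 CPM in insulin cells, against 31.8, 28.2 and 32.4 CPM in vehicle cells (0.35 ± 0.08, edgeR adjusted p = 0.00378). With H1047R the values were 35.7, 41.4 and 37.3 CPM in insulin cells, against 33.3, 34.4 and 29.5 CPM in vehicle cells (0.23 ± 0.08, edgeR adjusted p = 0.139). Every insulin library lay above every vehicle library with the same vector. The average was 0.29 ± 0.05 (edgeR adjusted p = 0.000416). MRPL1 was also called lower with siRSAD2 (-0.24 ± 0.07, edgeR adjusted p = 0.0192), and as both comparisons use the siRSAD2 empty-vector vehicle libraries, the opposite signs are not independent of each other.

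MRPL47 (ENSG00000136522.14, chr3:179588285-179604649, minus strand) encodes a large-subunit protein with a bacterial counterpart. With empty vector it had 70.9, 79.6 and 69.2 CPM in insulin cells, against 60.2, 61.1 and 61.8 CPM in vehicle cells (0.27 ± 0.06, edgeR adjusted p = 0.00307). With H1047R it had 69.7, 67.6 and 68.6 CPM in insulin cells, against 64.2, 66.4 and 60.6 CPM in vehicle cells (0.10 ± 0.06, edgeR adjusted p = 0.544). The groups did not overlap with either vector, although the gap with H1047R was smaller than the spread of its vehicle libraries.

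MRPL22 (ENSG00000082515.18, chr5:154941073-154969411, plus strand), whose bacterial counterpart lines the exit tunnel for the growing chain, had 75.1, 82.1 and 78.0 CPM in empty-vector insulin cells, against 66.1, 67.3 and 67.3 CPM in empty-vector vehicle cells (0.23 ± 0.05, edgeR adjusted p = 0.00866). With H1047R the change was 0.08 ± 0.05 and not called. The other calls with empty vector were MRPL13 (0.25), MRPS18C (0.26) and MRPL42 (0.20), with edgeR adjusted p between 0.0116 and 0.0482. Library 2 of the empty-vector insulin group, which stands apart, was the highest of its group for MRPL47, MRPL1, MRPL22, MRPL13 and MRPS18C. With both libraries that stand apart left out, 4 members were called with empty vector, against 4.65% of all genes. MRPL22, MRPL42 and MRPS18C were not among them (MRPL22 at 0.19, edgeR adjusted p = 0.0706), while MRPS15 was. With only the 2 compared groups in the fit, MRPL1 alone was called, against 2.23% of all genes. MRPL47, MRPL22, MRPL13, MRPL42 and MRPS18C were not called there. The count ran between 3, without empty-vector vehicle library 2 (5.02% of all genes), and 12, without empty-vector insulin library 1 (7.93%). In the average of both vectors 11 members were still called without the 2 libraries, against 9.1% of all genes, and MRPL19 was lost.

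MRPL20 (ENSG00000242485.6, chr1:1401909-1407293, minus strand), with a bacterial counterpart that acts early in assembly of the large subunit, was the other call in H1047R cells. It had 53.0, 50.4 and 52.6 CPM in insulin cells, against 45.0, 46.1 and 41.8 CPM in vehicle cells (0.23 ± 0.06, edgeR adjusted p = 0.0292). With empty vector it had 49.6, 47.5 and 44.8 CPM in insulin cells, against 45.3, 45.2 and 45.9 CPM in vehicle cells (0.06 ± 0.06), and these groups overlap. The call in H1047R cells was lost, with edgeR adjusted p between 0.0914 and 0.185, without vehicle library 1 or 3 or insulin library 1 or 3. MRPL20 shares 293 of 2767 exon bases with a pseudogene on the same strand, whose part was not tested.

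In the average of both vectors the further rises were MRPS10 (0.16), MRPS15 (0.17), MRPL13 (0.18), MRPL39 (0.16), MRPL22 (0.15), MRPL42 (0.17), MRPL20 (0.14) and MRPL19 (0.14), so that 3 small-subunit and 8 large-subunit genes rose. MRPL15 (ENSG00000137547.9), a large-subunit protein with a bacterial counterpart, was the only member that fell with insulin. It had 66.4, 65.7 and 69.0 CPM in H1047R insulin cells, against 74.0, 80.4 and 71.5 CPM in H1047R vehicle cells. With empty vector it had 70.0, 62.3 and 66.6 CPM in insulin cells, against 71.4, 73.0 and 75.6 CPM in vehicle cells. Its average change was -0.16 ± 0.04 (edgeR adjusted p = 0.0101), with no overlap for either vector.

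Related gene groups are described for the average of both vectors, where 8.37% of all genes were called. Of 77 nuclear respiratory chain genes 58 were positive (median 0.05) and 3 rose (3.9%), a share below that of all genes. Of 19 translation factors 15 were positive (median 0.08), and GFM1, a mitochondrial elongation factor, rose by 0.17 ± 0.04 (edgeR adjusted p = 0.00307). Of 76 cytosolic ribosomal protein genes 60 were negative (median -0.04) and 5 fell (6.58%), against 5.22% called lower among all genes, and 40 were negative with both vectors. The differences between these groups and the MRP genes were not tested. No assembly factor and no protein encoded by mitochondrial DNA was called. MYC, a transcription factor that can drive ribosomal genes, averaged 30.3 ± 1.15 CPM in H1047R insulin cells and 37.5 ± 3.30 CPM in H1047R vehicle cells. With empty vector it averaged 29.6 ± 0.220 CPM in insulin cells and 39.1 ± 1.63 CPM in vehicle cells, and its average change was -0.36 ± 0.05 (edgeR adjusted p = 4.06e-06). Cell type markers moved with insulin too. Of 6 stromal markers 3 fell, among them PDGFRA (-0.31) and DCN (-0.21), with sums of 4458 to 4839 CPM in H1047R insulin cells and 4440 to 4494 CPM in H1047R vehicle cells, and of 4214 to 4727 CPM in empty-vector insulin cells and 4728 to 4787 CPM in empty-vector vehicle cells. Of 6 epithelial markers KRT18 fell (-0.12) and KRT19 rose (0.12), with sums of 1997 to 2136 CPM in H1047R insulin cells and 1931 to 2049 CPM in H1047R vehicle cells, and of 1754 to 2054 CPM in empty-vector insulin cells and 1900 to 2038 CPM in empty-vector vehicle cells. Of 4 endothelial markers VWF rose (0.54, at 1.35 to 4.12 CPM), while 3 were negative and not called (median of the list -0.12). Of 3 immune markers tested CD14 rose (0.44, at 2.80 to 4.95 CPM), while 2 were negative and not called (median of the list -0.79). The part of these markers in the MRP levels was not tested.

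H1047R against empty vector was compared with vehicle, with insulin and in the average of both, all with siRSAD2. MRP genes changed little. With vehicle 1 of 77 was called, a fall (1.3%), against 1.36% of all genes, 0.621% higher and 0.742% lower. With insulin none was called, against 0.285% of all genes, 0.22% higher and 0.0647% lower. In the average 1 was called, a rise (1.3%), against 2.72% of all genes, 1.47% higher and 1.25% lower. With vehicle the 3 H1047R libraries lay above the 3 empty-vector libraries in 4 members and below them in 10, against 10.0% and 8.99% of all genes, and with insulin in 4 and 3 members, against 6.99% and 5.79%. The medians were 0.00, -0.01 and -0.01. With insulin, 8 of 77 members had an unadjusted p below 0.05, against 2440 of 23184 genes. DESeq2 called no member there either, against 0.407% of all genes. The SE of a member's difference had a median of 0.07 for a single comparison and 0.05 for an average, and no change below 0.14 on the log2 scale was called in any comparison, while DESeq2 on the same libraries also called MRPL35 (0.12) and MRPS22 (0.11) for insulin in the average.

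MRPL4 (ENSG00000105364.14, chr19:10251901-10260055, plus strand), a large-subunit protein whose bacterial counterpart reaches into the exit tunnel, had 44.6, 46.3 and 45.9 CPM in H1047R vehicle cells, against 51.6, 54.1 and 55.6 CPM in empty-vector vehicle cells. The groups did not overlap (-0.24 ± 0.06, edgeR adjusted p = 0.0454). With insulin it had 52.5, 47.1 and 50.1 CPM in H1047R cells, against 53.6, 46.5 and 51.6 CPM in empty-vector cells (-0.02 ± 0.06), where the groups overlap. The call was lost when any 1 of the 6 libraries other than empty-vector vehicle library 1 was left out (edgeR adjusted p between 0.0833 and 0.207), and with unstranded counts (0.12). Without both libraries that stand apart MRPL4 was not called either (0.0569), while MRPS18C and MRPS5 were. This comparison shares its empty-vector vehicle libraries with the siRSAD2 comparison, in which MRPL4 had a log2 fold change of 0.17 ± 0.06 (edgeR adjusted p = 0.0526).

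MRPS28 (ENSG00000147586.10), a small-subunit protein, was the member with the widest spread of group means. It had 2.95, 4.05 and 2.84 CPM in H1047R insulin cells, against 2.03, 1.42 and 2.14 CPM in empty-vector insulin cells. With vehicle it had 2.62, 2.83 and 2.64 CPM in H1047R cells, against 1.90, 1.77 and 1.94 CPM in empty-vector cells. All 6 H1047R libraries lay above all 6 empty-vector libraries, with an average log2 fold change of 0.67 ± 0.15 (edgeR adjusted p = 0.0101). Neither single comparison was called (0.53 with vehicle and 0.81 with insulin, edgeR adjusted p = 0.242 and 0.104). MRPS28 shares 650 of its 1817 exon bases with another gene on the same strand, and its longest transcript has 838 bases. The part of that overlap in this difference was not tested.

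In the average of both treatments with H1047R, where 2.72% of all genes were called, none of 26 assembly factors, 19 translation factors, 15 regulators and 5 subunits with other names was called. In the same comparison 19 of 76 cytosolic ribosomal protein genes rose and 1 fell, and 15 of 77 nuclear respiratory chain genes rose and 2 fell. Of the 13 proteins encoded by mitochondrial DNA, which the mitochondrial ribosome makes, 8 genes fell and 2 rose. MT-ND2, a subunit of complex I, averaged 1498 ± 118 CPM in H1047R vehicle cells and 2223 ± 90.9 CPM in empty-vector vehicle cells (-0.57 ± 0.11, edgeR adjusted p = 0.00538). MT-ATP8 rose in the same comparison (0.51 ± 0.08, edgeR adjusted p = 0.0011). MT-ATP6 went the other way, with 1445 ± 155 CPM in H1047R vehicle cells and 1897 ± 87.4 CPM in empty-vector vehicle cells. The cause of these opposite directions was not tested. In insulin cells none of the 13 was called for H1047R. MTERF3, an assembly factor, rose with H1047R in vehicle cells (0.32 ± 0.08, edgeR adjusted p = 0.0483).

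Whether insulin acted differently with H1047R was tested as an interaction. No MRP gene passed (smallest edgeR adjusted p = 0.698), nor did any gene of the 23184 (0.0%). At an unadjusted p below 0.05 there were 4 of 77 members, against 1611 of 23184 genes, and DESeq2 also called none. The SE of a member's interaction had a median of 0.10, and a call with one vector but not with the other, as for MRPL47 or MRPL20, is not shown to be a difference between the vectors. For MRPL20 the interaction was 0.17 ± 0.08 and for MRPL47 -0.16 ± 0.08 (edgeR adjusted p = 0.714 each).

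Human cells have 3 paralogs of the bacterial protein S18. With insulin all were positive, at 0.14 for MRPS18A, 0.13 for MRPS18B and 0.05 for MRPS18C with H1047R and at 0.10, 0.03 and 0.26 in the same order with empty vector. MRPS18A, now placed in the large subunit, had 35.1, 39.7 and 38.2 CPM in siRSAD2 empty-vector vehicle cells, against 42.4, 43.5 and 41.6 CPM in non-targeting cells (-0.18 ± 0.06, edgeR adjusted p = 0.0396). MRPS18B, in the small subunit, had 25.4, 25.1 and 26.9 CPM with siRSAD2, against 23.2, 25.1 and 25.1 CPM with the non-targeting siRNA, and was called in no comparison. MRPS18C, also in the small subunit, had 36.6, 46.5 and 35.9 CPM in empty-vector insulin cells, against 32.6, 33.0 and 34.0 CPM in empty-vector vehicle cells (0.26 ± 0.08, edgeR adjusted p = 0.0471). The siRSAD2 groups of MRPS18A and the insulin groups of MRPS18C do not overlap with their controls, but both calls rest on single libraries. The MRPS18A call was lost without non-targeting library 4, 5 or 6 or siRSAD2 empty-vector vehicle library 1 or 3. The MRPS18C call was lost without empty-vector vehicle library 1, 2 or 3 or empty-vector insulin library 2, with unstranded counts and with the replicate block. Differences between the paralogs were not tested.

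MRPL46 and MRPS11 are transcribed away from each other from starts 63 bases apart, the only pair of MRP genes among the 17 members with a divergent coding neighbour within 1000 bases. MRPS11 had 47.6 to 56.6 CPM and MRPL46 2.14 to 3.78 CPM over the 15 libraries, and neither was called in any comparison. With siRSAD2 their log2 fold changes were -0.13 ± 0.06 for MRPS11 and -0.11 ± 0.20 for MRPL46.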

How the data were processed

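The authors trimmed reads with Trim Galore and cutadapt, used STAR and hg38 for alignment, and deposited raw counts per gene and library. The methods name an annotation release with a mouse number, whereas the identifiers are human. The reverse-stranded counts were used. Of 60617 identifiers, 60357 matched GENCODE release 44, which gave symbols, exons and coordinates. A set of 4 summary entries per library was kept apart. Promoters are from RefSeq, and the motifs searched in them were chosen after the member values were seen.

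Gene counts from the 15 libraries were fitted together with edgeR 4.0.16 in R 4.3.3, using TMM factors, one coefficient for each group and the quasi-likelihood F test. Genes averaging under 1 count were dropped, and p was adjusted over the remaining 23184 by Benjamini-Hochberg with a threshold of 0.05. The common biological coefficient of variation was 0.0571. The p-values measure the spread between these libraries. The fit was tested on simulated data.

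Members, gene lists and tests were chosen with earlier results of these data known. Values per library are given for the 3 members with the smallest p in each direction and comparison, the 3 highest and lowest per length and the MRPS18 genes. From each list the 2 genes with the smallest p per comparison may be named, and other names were chosen after their values were seen. Alternatives were DESeq2 1.42.0, RLE size factors, 2 other filters, a threshold of 0.001, unstranded counts, a fit on the compared groups alone, a block for the replicate number, the longest transcript as length, and each library left out. Leaving out both libraries that stand apart was chosen after seeing the data.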

Additional observations from a re-analysis of the deposited data

How the results depend on the processing

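MRP genes called, of 77, are counted here, with the share of all genes called under the same setting in brackets. At an adjusted p of 0.001 the counts were 5 for siRSAD2 (7.6%) and 7 among the 5 groups (12.5%). They were 0 for insulin with empty vector (1.52%), 0 for insulin with H1047R (0.884%) and 0 for H1047R with vehicle (0.0474%). For the averages they were 2 for insulin (2.81%) and 0 for H1047R (0.341%). At this threshold the share of members called for insulin averaged and among the 5 groups was thus no higher than over all genes. With only the compared groups in the fit the counts were 1 for insulin with empty vector (2.23%). They were 8 for insulin with H1047R (5.4%) and 2 for H1047R with vehicle (2.28%). The filter of edgeR gave 10 for insulin with empty vector (9.47%), and no filter gave 2 for H1047R with vehicle (2.03%). Unstranded counts gave 1 for H1047R with insulin (0.283%) and 2 for H1047R averaged (2.12%). Without both libraries that stand apart there were 2 for H1047R with vehicle (2.11%) and 2 for H1047R averaged (2.25%).

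With each library left out in turn, the counts ran between 6 and 13 for siRSAD2 (14.7 to 17.3% of all genes). For insulin they ran between 3 and 12 with empty vector (4.14 to 7.93%) and 1 and 3 with H1047R (1.52 to 1.79%). For insulin averaged they ran between 8 and 14 (6.55 to 9.25%). For H1047R they ran between 0 and 1 with vehicle (0.275 to 1.31%) and 0 and 1 with insulin (0.0823 to 1.99%). For H1047R averaged they ran between 1 and 3 (1.17 to 5.17%), with 3 without empty-vector insulin library 2 or 3. Among the 5 groups they ran between 22 and 36 (23.1 to 30.6%). The interaction had 0 under every alternative. Single genes kept their direction, and 221 of their values kept their side of the threshold while 28 lost the call. The MRP medians for siRSAD2 and insulin kept their sign. For insulin with empty vector the median fell to 0.01 without empty-vector vehicle library 1. It reached 0.08 without both libraries that stand apart. The within-group SD of the members' median log2 CPM was 0.04. The medians near 0 did not keep their sign, running between -0.04 and 0.01 for H1047R with vehicle. They ran between -0.01 and 0.01 for H1047R with insulin and between -0.01 and 0.05 for the interaction. With unstranded counts the only call for H1047R with vehicle was a rise of MRPS18C in place of the fall of MRPL4. Causes of these differences were not tested. The longest transcript as length gave 199 CPM per kb for MRPL51, 87.2 for MRPL37, 74.6 for MRPL3, 62.6 for MRPL33, 58.9 for MRPL41, 1.075 for MRPL38 and 0.526 for MRPS24.

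Whether the replicate numbers in the titles pair the libraries could not be settled from their values. Of 18 pairs with the same number 2 had a correlation of deviations over 0.1 (median -0.01), and 6 of 12 libraries correlated best with their own number. Between the empty-vector and H1047R insulin groups the pairs with the same number had 0.15, 0.14 and 0.09, and all others were negative. Between the H1047R vehicle and insulin groups the pairs with the same number had -0.03, -0.12 and -0.02. With the number as a block over the 12 siRSAD2 libraries, 0 MRP genes were called for H1047R with vehicle (1.16% of all genes). For any difference among the groups 6 were called (8.3% of all genes), in a fit that leaves out the non-targeting group. The other counts of MRP genes stayed within 1.5 times. Low counts limit MRPS24, MRPL38, MRPS28 and MRPL46.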
